A study of Homo sapiens with 2 samples.

Results

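The 9 genes described here act in MHC class I antigen presentation: the heavy-chain genes HLA-B, HLA-C and HLA-E, B2M, the peptide-loading genes TAP1, TAP2 and TAPBP, the proteasome gene PSMB9 and the regulator NLRC5. They were chosen by name, as 9 of 20163 protein-coding genes, and each was described by the accessibility peaks that came within 3 kb of its transcription start site (TSS). By this rule they held 13 of 114060 peaks in the DMSO library and 16 of 161184 in the MAK683 library.

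Chromatin accessibility had been measured by ATAC-seq, in which the transposase Tn5 cuts open DNA and leaves sequencing adapters there. Both libraries came from G401, an established cell line from a malignant rhabdoid tumour of the kidney that lacks the chromatin remodelling subunit SMARCB1. One culture was given the solvent DMSO. The other was given MAK683, an inhibitor of the Polycomb complex PRC2 that binds its EED subunit and so keeps it from methylating H3K27. By the labels both were treated for 3 days, and per the series description MAK683 was used at 3 µM. Each group had 1 library, so the differences have neither a replicate check nor a p-value, and whether any of them exceeds the spread between cultures could not be tested.

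MHC class I molecules show fragments of a cell's own proteins to cytotoxic T cells. The proteasome cuts the proteins, the TAP transporter moves the peptides into the endoplasmic reticulum, and tapasin helps to load them onto a heavy chain paired with beta-2-microglobulin. In most cells these genes are raised together by interferon through ISRE elements, by NF-kappa B through kappa B sites, and by NLRC5, which joins factors bound to the X and Y boxes of class I promoters. PRC2 is known to hold this pathway down in some tumours.

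The bases upstream of the start sites are shown because those elements lie there and because the accessibility peaks cover them. RefSeq promoter entries (GRCh38.p14) were found for 7 of the 9 genes, all but HLA-E and NLRC5. Each entry matched GRCh37 exactly at 1 place on the strand of the gene, with only its own chromosome searched. Its start site was the TSS used for the peaks, apart from a further TAP1 entry that starts 943 bp away and is not counted here. The 250 bases before the start site of 6 of them are given 5′ to 3′ on the strand of the gene. Capitals mark every exact match, on either strand, to the ISRE core GAAANNGAA, kappa B GGGANNCCC or GGGANTTTC, X2-like TGACGC or the inverted CCAAT box ATTGG.
HLA-B: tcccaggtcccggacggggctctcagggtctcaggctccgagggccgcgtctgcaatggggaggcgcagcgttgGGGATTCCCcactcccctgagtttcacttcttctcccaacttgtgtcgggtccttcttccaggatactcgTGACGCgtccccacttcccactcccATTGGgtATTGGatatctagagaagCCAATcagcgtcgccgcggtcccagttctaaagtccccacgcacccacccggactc
HLA-C: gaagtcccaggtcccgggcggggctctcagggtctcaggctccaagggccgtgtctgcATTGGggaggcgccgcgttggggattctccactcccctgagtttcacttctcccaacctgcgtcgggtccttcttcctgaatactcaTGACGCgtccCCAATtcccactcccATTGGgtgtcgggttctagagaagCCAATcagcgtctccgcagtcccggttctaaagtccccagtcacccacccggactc
B2M: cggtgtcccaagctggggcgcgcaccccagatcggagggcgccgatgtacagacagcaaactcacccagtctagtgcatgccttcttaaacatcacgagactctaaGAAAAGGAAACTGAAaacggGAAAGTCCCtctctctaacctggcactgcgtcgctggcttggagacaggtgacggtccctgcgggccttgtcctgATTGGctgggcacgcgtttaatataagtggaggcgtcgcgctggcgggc
TAP1: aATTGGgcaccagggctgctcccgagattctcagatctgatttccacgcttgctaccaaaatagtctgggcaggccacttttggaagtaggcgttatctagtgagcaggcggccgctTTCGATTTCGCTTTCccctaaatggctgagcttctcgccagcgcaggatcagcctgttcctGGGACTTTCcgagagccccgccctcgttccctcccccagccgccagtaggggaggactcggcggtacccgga
TAP2: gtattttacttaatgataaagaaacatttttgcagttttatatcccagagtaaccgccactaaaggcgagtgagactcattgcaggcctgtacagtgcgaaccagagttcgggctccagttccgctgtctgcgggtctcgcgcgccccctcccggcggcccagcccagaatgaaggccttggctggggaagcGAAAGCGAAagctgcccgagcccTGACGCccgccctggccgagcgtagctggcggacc
TAPBP: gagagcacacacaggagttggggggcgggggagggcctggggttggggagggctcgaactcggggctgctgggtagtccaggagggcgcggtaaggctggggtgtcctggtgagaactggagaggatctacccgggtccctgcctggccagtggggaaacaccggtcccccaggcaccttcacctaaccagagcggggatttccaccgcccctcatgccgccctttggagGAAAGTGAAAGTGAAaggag
In GRCh37 the 300-base entries, which also hold 50 bases after the start, are chr6:31324907-31325206 for HLA-B, chr6:31239820-31240119 for HLA-C and chr15:45003465-45003764 for B2M. Those of the loading genes are chr6:32821432-32821731 for TAP1, chr6:32806467-32806766 for TAP2 and chr6:33281806-33282105 for TAPBP. B2M is on the plus strand and the other 5 are on the minus strand.

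The printed promoters differed in the exact matches they held. An ISRE core was found in 4 of the 7 entries: it began 144 and 138 bases upstream of the start in B2M, 133 and 127 in TAP1, 58 in TAP2, and 20 and 14 in TAPBP. In B2M, TAP1 and TAPBP the cores overlap each other. Of 35093 RefSeq promoters of the same length, 8.11% held this core. The kappa B form GGGANTTTC was found in B2M and TAP1 and in 1.28% of all promoters. HLA-B held the form GGGANNCCC 176 bases upstream, which 8.02% of promoters hold. The X2-like TGACGC lay 106 bases upstream in HLA-B, 105 in HLA-C and 35 in TAP2, against 9.14% of promoters with a match. The inverted CCAAT box was in 5 of 7 entries and in 34.6% of promoters, and the GC box GGGCGG, left in lower case, was in 5 of 7 and in 44.9%. Neither the GAS element TTCNNNGAA (7.66% of promoters) nor the CRE TGACGTCA (1.85%) was matched in these 7 windows. A match gives letters in the reference, not a bound site. Only these exact letters were searched, so an entry without a match, such as HLA-B or HLA-C for the ISRE core, may still hold a variant form.

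HLA-B and HLA-C are close relatives, and 269 of 296 aligned promoter bases (90.9%) were identical. HLA-B shared 59.8% of aligned bases with B2M and 66.0% with TAP1. Because HLA genes resemble each other, reads could be placed on the wrong copy. As a check on the reference alone, none of the 117-base words within 500 bp of each TSS, 885 per gene, recurred elsewhere on the same chromosome. The word length is the shorter of the tag sizes that the headers of the peak files give. How well the HLA alleles of G401 match the reference was not tested. GC content of the 7 entries ran from 58.3% in B2M to 68.3% in PSMB9, beside a median of 58.7% over all promoters, and CpG number from 12 in TAPBP to 26 in PSMB9, beside a median of 14.

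All 9 genes had a promoter peak in both libraries, as did 70.9% of protein-coding genes, so their presence among open promoters does not set them apart. In every one of the 9 genes the tallest peak was lower in MAK683, by a median of -0.48 on the log2 scale, a ratio of 0.717. The same direction held for 78.4% of the 16247 promoters with a peak in either library, whose median was -0.42. With a peak required in both libraries it held for 86.5%. Peak height here is the pileup of tags over the summit per 1000000 tags after filtering (RPM), and 1 tag is worth 0.0602 RPM in DMSO and 0.0547 RPM in MAK683. The libraries held 16598348 and 18265284 such tags. The lowest listed peak of each had 6 tags.

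**Figure D1:**
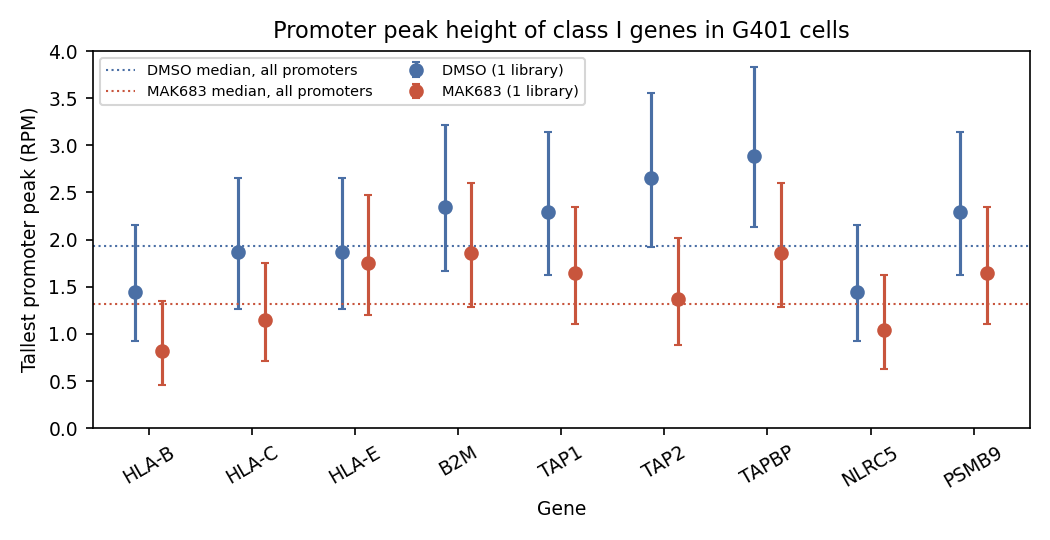
Height of the tallest promoter peak of each of the 9 genes, in tags per 1000000 tags after filtering (RPM), in the DMSO and the MAK683 library, with 95% exact counting intervals, and dotted lines at the median over all promoters of each library. Heights run from 1.45 to 2.89 RPM in DMSO and from 0.821 to 1.86 RPM in MAK683, and each gene's MAK683 value is below its DMSO value, with overlapping intervals in all 9 genes.

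The classical heavy chains HLA-B and HLA-C carry peptides to T cells. HLA-B (ENSG00000234745, chr6:31321649-31334844, minus strand) had 24 tags at its summit in DMSO, a height of 1.45 RPM (95% exact interval 0.926 to 2.15), and 15 tags in MAK683, a height of 0.821 RPM (0.460 to 1.35). This was the lowest MAK683 promoter of the 9, and the log2 ratio was -0.82 (95% counting interval -1.75 to 0.11). The DMSO summit lay 89 bp upstream of the TSS and the MAK683 summit 150 bp upstream, both inside the printed promoter. The X2-like match lies between these positions. Tags were extended to 200 bp and the precision of summit positions was not estimated, here or for the genes below. Its DMSO peak was 706 bp wide, narrower than those of the other 8 genes. The TSS of the pseudogene ENSG00000271581 lies 532 bp downstream. The window also held a low DMSO peak of 10 tags, 443 bp upstream, and low MAK683 peaks of 10 and 8 tags, 1712 and 1064 bp downstream.

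HLA-C (ENSG00000204525, chr6:31236526-31239907, minus strand) had 31 tags in DMSO, 1.87 RPM (1.27 to 2.65), and 21 tags in MAK683, 1.15 RPM (0.712 to 1.76). The log2 ratio of -0.70 (-1.50 to 0.10) was close to that of HLA-B, whose TSS lies 85.1 kb away. The summits lay 107 and 94 bp upstream of the TSS, near the X2-like match. The peak narrowed from 1699 to 1125 bp, and a separate MAK683 peak of 11 tags and 200 bp had its summit 575 bp upstream, at a place that the DMSO peak covered. The TSS of the lncRNA ENSG00000288813 lies 148 bp upstream on the opposite strand, under the peak of both libraries, so the peak is shared by both starts.

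HLA-E (ENSG00000204592, chr6:30457286-30461971, plus strand) encodes a nonclassical heavy chain that is seen by receptors of natural killer cells. It had 31 tags in DMSO, 1.87 RPM, and 32 tags in MAK683, 1.75 RPM (1.20 to 2.47). With a log2 ratio of -0.09 (-0.80 to 0.62) its tallest peak differed least of the 9 genes, and the sign depended on depth scaling, since the MAK683 pileup was the higher of the pair. Its ratio was higher than that of 74.7% of all promoters. The summits lay 11 and 13 bp upstream of the TSS and the peaks were 1596 and 1571 bp wide. In DMSO, 2 low peaks of 9 tags each lay further downstream in the window, and with all peaks of the window summed the log2 ratio was -0.75.

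B2M (ENSG00000166710, chr15:45003556-45011049, plus strand) encodes beta-2-microglobulin, the light chain that all class I heavy chains need. It had 39 tags in DMSO, 2.35 RPM (1.67 to 3.21), and 34 tags in MAK683, 1.86 RPM (1.29 to 2.60), a log2 ratio of -0.34 (-0.999 to 0.33). After HLA-E this was the smallest difference of the 9 between tallest peaks. With all peaks of the window summed it was -0.75. The summit lay 128 bp upstream of the TSS in DMSO, near the ISRE and kappa B matches, and 19 bp upstream in MAK683. Whether this exceeds the error of summit positions was not tested. A separate DMSO peak of 13 tags lay 1152 bp downstream. The TSS of PATL2 lies 194 bp upstream on the opposite strand, so the peak is shared by both starts.

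TAP1 and TAP2 encode the partner chains of the peptide transporter, and PSMB9 encodes a catalytic subunit of the immunoproteasome. TAP1 (ENSG00000168394, chr6:32812986-32821593, minus strand) and PSMB9 (ENSG00000240065, chr6:32811913-32827628, plus strand) start 488 bp apart and run away from each other. They shared a single peak, which counts as 1 measurement for both, so the 9 genes gave 8 distinct tallest peaks. It had 38 tags in DMSO, 2.29 RPM (1.62 to 3.14), and 30 tags in MAK683, 1.64 RPM (1.11 to 2.34), with a log2 ratio of -0.48 (-1.17 to 0.21). Its summits lay 64 and 89 bp upstream of the PSMB9 TSS but 424 and 399 bp upstream of the TAP1 TSS. The highest accessibility was thus on the PSMB9 side, beyond the ISRE and kappa B matches printed for TAP1. The peak narrowed from 1658 to 1025 bp.

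TAP2 (ENSG00000204267, chr6:32789610-32806516, minus strand) starts 14965 bp from TAP1 and has a promoter of its own. It had 44 tags in DMSO, 2.65 RPM (1.93 to 3.56), and 25 tags in MAK683, 1.37 RPM (0.886 to 2.02). The log2 ratio of -0.95 (-1.66 to -0.25) was the lowest of the 9, lower than in all but 7.14% of promoters. The summits lay 75 and 85 bp upstream, near the ISRE core, and the peak narrowed from 1618 to 1091 bp. TAP2 stood at the 80.4th percentile of promoter heights in DMSO and at the 54.4th in MAK683. A readthrough transcript starts 83 bp upstream on the same strand and shares the peak.

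TAPBP (ENSG00000231925, chr6:33267471-33282061, minus strand) encodes tapasin, the bridge between TAP and the heavy chain. It had 48 tags in DMSO, 2.89 RPM (2.13 to 3.83), and 34 tags in MAK683, 1.86 RPM, a log2 ratio of -0.64 (-1.27 to -0.0017). These heights are not at the same place. The DMSO peak ran over 7159 bp, and its summit lay 3982 bp upstream of the TAPBP TSS and 316 bp from the TSS of the neighbouring gene ZBTB22. The MAK683 peak was 3109 bp wide with its summit 1013 bp upstream of TAPBP, and a further MAK683 peak of 10 tags lay 2713 bp upstream. When only peaks with a summit within 3 kb were used, TAPBP had no DMSO peak, so its ratio does not describe the tapasin promoter itself.

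NLRC5 (ENSG00000140853, chr16:57023397-57117443, plus strand) encodes the class I transactivator. It had 24 tags in DMSO, 1.45 RPM, and 19 tags in MAK683, 1.04 RPM (0.626 to 1.62), with a log2 ratio of -0.48 (-1.34 to 0.39). In DMSO a single peak of 1774 bp covered the start, with its summit 6 bp downstream of the TSS in an untranslated exon. In MAK683 the same window held 4 peaks: the tallest, 1023 bp wide, had its summit 5 bp upstream of the TSS, and those 388, 903 and 2567 bp upstream had 13, 11 and 10 tags. The summit near the start thus held fewer tags in MAK683, and more separate peaks were called around it, some of them over bases that the single DMSO peak covered.

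**Figure D2:**
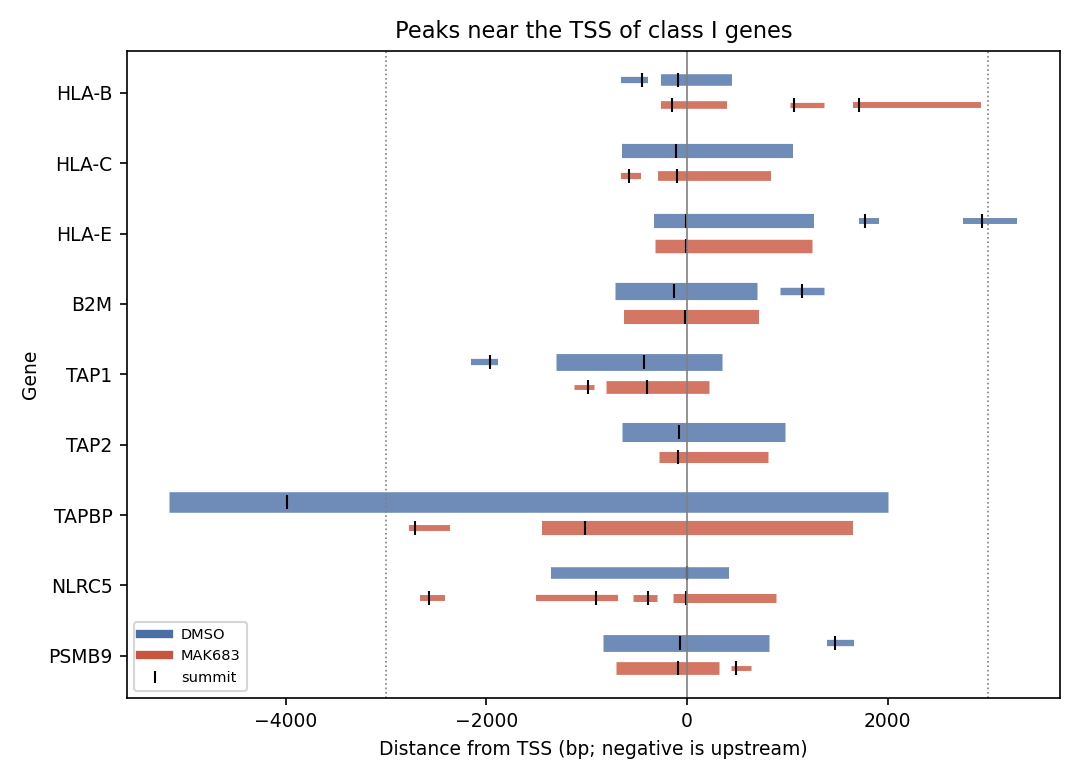
Promoter peaks of the 9 genes in each library, drawn by distance from the TSS in bp in the direction of transcription, with a mark at each summit, a thicker line for a taller peak and dotted lines at 3 kb. The tallest peak covers the TSS in both libraries for all 9 genes, the 7159 bp DMSO peak of TAPBP runs out of the 3 kb window, and NLRC5 has 1 DMSO peak and 4 MAK683 peaks.

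At 7 of the 9 genes the summits of both libraries were no more than 150 bp from the start, the exceptions being TAP1 and TAPBP. This limit is the largest distance among the 7, that of HLA-B in MAK683, and the share of all promoters within it was not computed. TAP1 is an exception although it shares its peak with PSMB9, which is among the 7. Tallest peaks were narrower in MAK683 in all 9 genes, and so they were in 73% of the 14288 protein-coding genes whose promoters had peaks in both libraries. Over all their peaks, the genes had 19353 bp covered in DMSO and 14668 bp in MAK683. Most of this difference came from TAPBP, with a peak of 7159 bp in DMSO and peaks of 3109 and 411 bp in MAK683. The covered length was not computed over all promoters. Peaks that did not cover a TSS numbered 5 of 13 in DMSO and 8 of 16 in MAK683. The share over all promoters was not computed, and the whole libraries held 114060 peaks in DMSO and 161184 in MAK683. More than 1 peak was found at 5 of the 9 genes in DMSO and at 6 in MAK683, and at 57.8% and 54.7% of all genes with a promoter peak in the same library, so the 9 genes lay near promoters at large.

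In DMSO the order of heights was TAPBP, TAP2, B2M, the peak of TAP1 and PSMB9, HLA-C level with HLA-E, and HLA-B level with NLRC5. Neighbours in that order were within each other's counting intervals. Against all promoters with a peak, whose median was 1.93 RPM in DMSO and 1.31 RPM in MAK683, 5 of the 9 genes were above the median in DMSO and 6 in MAK683. HLA-B stood at the 31.6th percentile of heights in DMSO and at the 21.7th in MAK683. B2M stood at the 69.3rd and 80.9th, so its place among promoters was higher in MAK683 although its height was lower. These percentiles, and those of TAP2 above, are over different sets, 14660 promoters in DMSO and 15875 in MAK683. The MAK683 interval of B2M, 1.29 to 2.60 RPM, includes the median of 1.31, and whether the shifts in place exceed counting error was not tested.

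**Figure D3:**
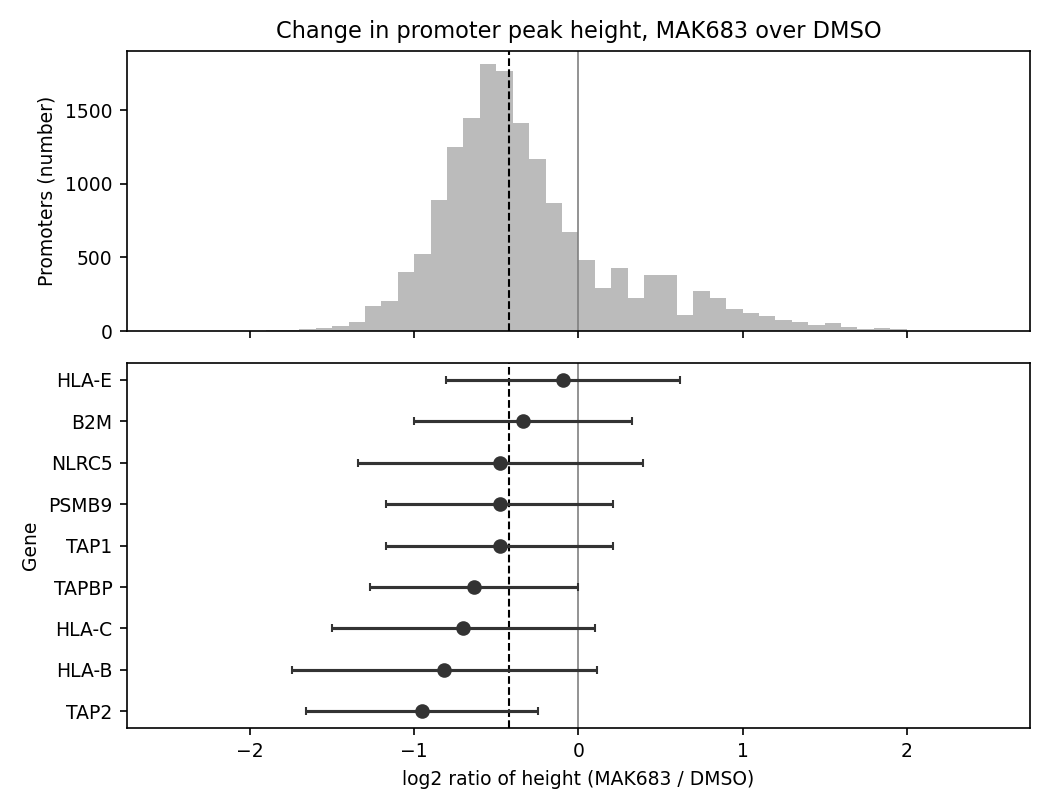
Log2 ratio of promoter peak height, MAK683 over DMSO, for each of the 9 genes with its 95% counting interval, below a histogram of the same ratio over all promoters with a peak in either library. The dashed line is the median over all promoters and the grey line is 0. Ratios run from -0.95 in TAP2 to -0.09 in HLA-E, and the interval of each of the 9 genes includes the median of -0.42 over all promoters.

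A difference of at least 1.5-fold downward was seen in 4 of the 9 genes, HLA-B, HLA-C, TAP2 and TAPBP, and in 32.8% of promoters, or 36% of those with a peak in both libraries. With all peaks of the window summed, 3 of the 9 were lower by 1.5-fold, namely TAP2, HLA-E and B2M. By that sum HLA-B was at -0.18, HLA-C at -0.09 and TAPBP at -0.26, while NLRC5, at 1.005, was higher by 1.5-fold. Which genes passed thus depended on that choice, and the share of all promoters past 1.5-fold was not computed for the sum. By the tallest peak, none of the 9 was higher by 1.5-fold, against 9.64% of promoters. That share includes promoters with a peak in MAK683 alone. The counting interval lay below 0 in 2 of the 9, TAP2 and TAPBP, and in 20.6% of promoters with a peak in both libraries. The genes were also set beside the 8811 promoters with a peak in both libraries and a mean height in their own range of 1.13 to 2.38 RPM. Of those, 91.4% were lower in MAK683, with a median of -0.51, and 40.8% were lower by 1.5-fold, against 9 and 4 of the 9 genes. Higher by 1.5-fold were 140 of the 8811, against none of the 9. The counts for the 9 genes thus lay near those of promoters at large. All 9 intervals share the range from -0.80 to -0.25, so the order of the ratios among the genes is within counting error.

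Of 30 other genes of the class I pathway (other heavy chains, proteasome and its activators, peptidases, chaperones and regulators), 29 had a promoter peak in DMSO and 27 in MAK683. Their median log2 ratio was -0.54, with a floor of 0.361 RPM for a library without a listed peak. Of the 27 with a peak in both libraries, 26 were lower in MAK683, and 12 of them by at least 1.5-fold. Over all promoters with a peak in both libraries, 86.5% were lower and 36% were lower by at least 1.5-fold. The tallest in DMSO were PSME2, a subunit of the proteasome activator PA28, ERAP1, which trims peptides in the endoplasmic reticulum, and CANX, which encodes the chaperone calnexin. PSME2 went from 3.43 to 2.41 RPM, ERAP1 from 3.37 to 2.14 RPM and CANX from 3.31 to 1.75 RPM. The log2 ratio of CANX was -0.92 (-1.55 to -0.29). PSMB8, the immunoproteasome subunit next to TAP1 and TAP2, had a peak of 11 tags in DMSO and none listed in MAK683, and HLA-F had 7 tags in DMSO and none listed in MAK683. The single gene of the list that was higher in MAK683, named after its values were seen, was PSME1, the partner of PSME2, at 1.75 RPM in DMSO and 2.68 RPM in MAK683 (log2 ratio 0.62, -0.04 to 1.28).

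The class II genes, which present outside antigens and are mostly used by immune cells, had lower promoter peaks, with median heights of 0.753 RPM in DMSO and 0.876 RPM in MAK683, and went in both directions. Of 12 genes, 6 had a promoter peak in DMSO and 7 in MAK683, and 5 had one in both. Of those 5, 2 were lower and 3 higher in MAK683, while 86.5% of all promoters with a peak in both libraries were lower. The 3 had only 8 to 16 tags in either library. The counting interval of each of the 5 includes both 0 and the median of -0.42 over all promoters, so their directions are within counting error. CIITA, the class II counterpart of NLRC5, had a peak in MAK683 alone, of 23 tags and 1.26 RPM (0.798 to 1.89). HLA-DPB1 had 15 tags in MAK683 alone and HLA-DMA 15 tags in DMSO alone. CD74, the invariant chain, was the tallest, at 2.59 RPM in DMSO and 1.81 RPM in MAK683, and HLA-DMB followed at 1.57 and 0.985 RPM. The peak lists hold only peaks past the authors' threshold, so a library with no listed peak can still hold tags there, and no ratio is printed for a single gene with a peak in 1 library.

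**Figure D4:**
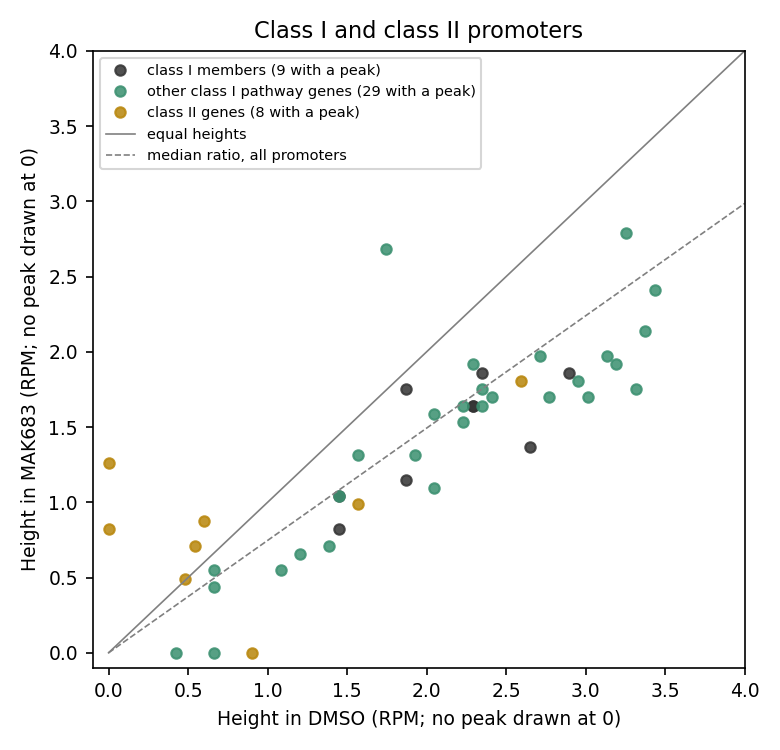
Height of the tallest promoter peak in MAK683 against that in DMSO, both in RPM, with a point for each of the 9 genes, of 29 other class I pathway genes and of 8 class II genes with a peak in either library. A library without a listed peak is drawn at 0, the solid line marks equal heights and the dashed line the median ratio over all promoters, 0.746. Except for PSME1 at 1.75 and 2.68 RPM, the class I points lie below the solid line, and class II points lie on both sides of it.

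Of the 9 genes, 7 lie in the MHC region, taken here as chromosome 6 from 29 to 34 Mb, and their log2 ratios ran from -0.95 to -0.09. Their 6 distinct peaks had a median of -0.67, or -0.70 without TAPBP. The other 178 protein-coding genes of the region gave 131 ratios, the floor included, with a median of -0.57, of which 119 (90.8%) were lower in MAK683. All other promoters had a median of -0.42, with 78.3% lower. With a peak required in both libraries, 104 of 110 in the region were lower, with a median of -0.57. Outside it 12248 of 14169 were lower, with a median of -0.46. B2M and NLRC5, which lie on other chromosomes, had the -0.34 and -0.48 given above. The lower heights of the 7 genes were thus shared by the other promoters of the region, and the part of the region in them was not tested.

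Markers were read the same way. SMARCB1 had no promoter peak in either library. Of 7 markers of other cell types, 6 could be matched: PTPRC, CD3E, CD14 and ALB had no promoter peak in either library, while the B cell gene CD79A had 20 tags in DMSO and 14 in MAK683 and the epithelial gene EPCAM had 12 and 11.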

How the data were processed

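The methods of the study give Trim-galore 0.4.4_dev for trimming and Bowtie2 for alignment to hg19. The file headers show that narrow peaks were called by the authors separately for the DMSO and MAK683 libraries with MACS 2.1.1.20160309, without a control, with tags read as single ends, 1 tag kept per position, a shift of 100 bp against the read direction, extension to 200 bp and a q-value cutoff of 0.05. Local background was off, so a region with more coverage was not corrected for it. The study's methods name MACS2 2.2.7.1 and the submitters' processing notes also MACS2 2.1.0. The deposited pileup signal counts extended tags over the summit and takes no account of depth. Fold enrichment as deposited, a ratio to the genome-wide background, and the −log10 p-values and −log10 q-values served only as alternatives or filters.

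From these values the tallest peak with any base within 3 kb of the TSS was taken for each gene (GENCODE 44 lifted to GRCh37, Ensembl canonical transcript) and scaled to tags after filtering, 16598348 and 18265284. Where only 1 library had a peak, the other was given a height of 0.361 RPM, the larger of the lowest listed heights. Heights have 95% Clopper-Pearson intervals, and log2 ratios have Poisson intervals by a normal approximation. All intervals cover counting error only, since reads lacked molecular identifiers and are not independent molecules. No test was run, as there was 1 library per group. The intervals of the ratios were tried on simulated Poisson counts, the model they assume, so this checked the calculation alone. Intervals of the heights were not tried in this way, and the choice of the tallest peak was not simulated.

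The members and gene lists were chosen with earlier results of these data known. Genes named were the 9 members, genes that start within 3 kb of them or share their peaks and, in the other lists, those with a log2 ratio of at least 1 in size, those with a peak in 1 library and the 3 tallest in DMSO. Alternatives were stricter q-values, other windows, start sites, scalings and ways to choose the peak. Those without TAPBP and with the peak nearest the TSS were added after seeing the data. Sequences are from RefSeq (GRCh38.p14). Python 3.11.15, numpy 2.4.6, pandas 2.3.3, scipy 1.17.1 and biopython 1.88 were used.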

Additional observations from a re-analysis of the deposited data

How the results depend on the processing

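The median log2 ratio of the 9 genes stayed below 0 under all 16 alternatives run on it, between -0.56 and -0.34, and the number of genes lower in MAK683 was 7 to 9. The 7 came from pairing peaks that overlap by 50% of each, which gave no value for TAPBP and NLRC5. Of the values for single genes, 3 changed sign: TAPBP was 2.36 when the summit had to lie in the window, a value set by the floor used for DMSO, HLA-E was 0.046 with no depth scaling, and NLRC5 was 1.005 with all peaks of the window summed, where 1 DMSO peak was set against 4 MAK683 peaks, so that this value follows the number of peaks called. The same sum gave -0.75 for HLA-E and B2M, -0.26 for TAPBP, -0.18 for HLA-B and -0.09 for HLA-C. With −log10 q of at least 10, 8 of the 9 genes had a promoter peak in MAK683. HLA-B had none there, and its ratio of -0.68 was set by the floor.

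The median over all promoters, -0.42, was -0.43 with −log10 q of at least 5, -0.45 with at least 10, -0.44 with a window of 1 kb, -0.29 with no depth scaling, -0.44 with total tags, -0.36 with fold enrichment and -0.40 with all peaks summed. It was -0.47 for overlapping pairs, -0.48 for pairs overlapping by 50% and -0.46 for genes with a peak in both libraries. The other class I genes were at -0.40 with no depth scaling. The MHC region was at -0.44 with no depth scaling and at -0.49 with fold enrichment. The class II median, 0.21, came from 8 ratios, of which only 5 had a peak in both libraries and the rest were set by the floor. It was 0.032 for those 5, and -0.045 with −log10 q of at least 10, where fewer peaks remain.

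The tallest peaks of the 9 genes held 15 to 48 tags, which limits the precision of each ratio. No paired analysis was possible because each group had 1 library, and for the same reason no library was left out.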

Other observations

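Peaks that overlapped the genes but lay beyond 3 kb of the start were not used for these genes in the main results. NLRC5, which spans 94047 bp, had 5 such peaks in DMSO and 17 in MAK683, beside 114060 and 161184 peaks in the whole libraries. Its tallest was at the same place in both, with 22 tags at chr16:57079594-57080399 in DMSO and 21 tags at chr16:57079545-57080423 in MAK683. The start of NLRC5 had 24 and 19 tags. HLA-B had 1 such peak in each library, across the 5′ end of its longest annotated extent, with the summit just outside it and 23 tags at chr6:31334458-31335208 in DMSO and 17 at chr6:31334291-31335275 in MAK683. Those values are close to the 24 and 15 tags at its main start. TAPBP had 3 in each library, of which the tallest ran across its 3′ end, with the summit outside the gene, and had 43 tags in DMSO and 31 in MAK683. HLA-E had 1 and 2, TAP2 had 1 and 1, and PSMB9 had 1 and 0. The DMSO peak of PSMB9, of 11 tags, lies within 3 kb of the PSMB8 TSS, so it is not a separate observation from the PSMB8 peak above. HLA-C, TAP1 and B2M had none in either library.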
